A study of Mus musculus with 2 samples.

Results

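The endoplasmic reticulum (ER) genes described here are 34 named genes that fold secreted and membrane proteins and remove those that fail to fold: 4 sensor pathway genes, 11 chaperones and co-chaperones, 7 oxidative folding enzymes, 9 degradation genes and 3 genes of the translocation channel. They were taken by exact match of the gene name on the array, and all 34 of them were found among the 37067 gene names printed there and were measured, as were 26528 genes in all. The mice of both groups were females of the inbred strain C57BL/6, 7 weeks old, and total RNA of the cochlea was read on 1-colour Agilent arrays. The noise group had 2 hours of intense noise and was dissected 3 hours after it ended, and the baseline group had no noise exposure. Each group had 1 array, so no p-value was computed and every difference below is between 2 samples. The labels used here give no sound level, no hour of the day and no number of mice behind a sample, so it is not known whether a sample is 1 animal or a pool.

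Proteins that enter the ER are folded by chaperones around the Hsp70 protein BiP, are joined by disulphide bonds through protein disulphide isomerases, and are passed to the cytosol for proteasomal degradation if folding fails. When unfolded proteins build up, the membrane proteins IRE1, PERK and ATF6 signal to the nucleus and raise transcription of this same machinery, which is known as the unfolded protein response. Hair cells, supporting cells and the secretory epithelia of the cochlea make large amounts of membrane and matrix protein, and in mice the loss of the ER-resident factor Manf leads to hearing loss.

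Many promoters of this pathway carry an ER stress response element, the site bound by ATF6 with the CCAAT-binding factor NF-Y. It was searched in the RefSeq promoters of assembly GRCm38.p6, from 250 bases before to 50 bases after each start site, and the stretches below show it in 8 of the members that hold it, with log2 ratios from 0.01 to 0.67. Each stretch reads 5′ to 3′ along the gene's own strand, with the element and up to 20 bases on each side, and capitals mark the fixed bases of the element. The first form of the element is CCAAT, 9 bases and CCACG, and on the opposite strand it reads CGTGG, the spacer and ATTGG. Herpud1 holds a second form, ATTGG, 1 base and CCACG.
Ero1lb, current symbol Ero1b, chr13:12565662-12565720 (+): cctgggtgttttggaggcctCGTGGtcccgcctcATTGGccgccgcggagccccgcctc
Dnajc3, chr14:118937807-118937865 (+): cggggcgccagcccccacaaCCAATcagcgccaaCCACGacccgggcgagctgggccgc
Herpud1, chr8:94386357-94386407 (+): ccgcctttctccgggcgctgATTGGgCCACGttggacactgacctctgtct
Creld2, chr15:88819500-88819558 (+): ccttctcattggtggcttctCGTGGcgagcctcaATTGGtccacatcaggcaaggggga
Hspa5, chr2:34772005-34772063 (+): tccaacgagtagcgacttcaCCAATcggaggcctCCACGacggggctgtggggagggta
Hsp90b1, chr10:86705513-86705676 (-): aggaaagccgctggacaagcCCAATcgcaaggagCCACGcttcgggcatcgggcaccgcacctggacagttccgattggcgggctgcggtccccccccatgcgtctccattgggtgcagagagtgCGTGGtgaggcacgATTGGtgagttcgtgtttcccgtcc
Calr, chr8:84847055-84847113 (-): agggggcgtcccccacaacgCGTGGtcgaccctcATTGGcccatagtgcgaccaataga
Canx, chr11:50325780-50325838 (-): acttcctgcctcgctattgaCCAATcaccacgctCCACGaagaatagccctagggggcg

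The ER genes stood slightly higher in the noise cochlea, together rather than through a few large differences. Their median log2 ratio, noise minus baseline, was 0.20, while that of all 26528 measured genes was -0.01 with a central 95% of -0.77 to 0.63. Of the 34 members, 30 were above 0, against a background of 47.5% of measured genes, and 4 were below 0, against 52.5%. None was 2-fold higher or 2-fold lower, steps passed by 0.611% and 1.25% of measured genes. Only Ero1lb and Dnajc3 were 1.5-fold higher, against a background of 3.02%, and no member was 1.5-fold lower, against 4.99%. The number 1.5-fold higher ran from 0 with normexp background correction to 7 with scaling to spike-in controls. The share of all genes 1.5-fold higher was not counted under those settings. The values are relative to each array's 75th percentile of signal. The 4 members below 0 were Hyou1, Sec61a1, Ssr1 and Dnajc10, and under scaling to spike-in controls, which moved the median of all genes to 0.16, none of the members was below 0.

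The size of these differences can be set against technical spread only. Repeat spots of 1 probe gave a log2 ratio an SD of 0.0686. The scanner software's own error of a log2 ratio was 0.204 for the median member probe. Its lowest value over the member probes was also 0.204, so for many of them it acted as a fixed step. Different probes of a gene differed with an SD of 0.272 over 9348 genes. Beyond the repeat-spot SD lay 28 members above, against 35.9% of all measured genes, and 2 below, against 41.1%, with 4 within it. Beyond the software's error lay 17 above, against 18.8%, and 0 below, against 23.3%. Beyond the between-probe SD, a step chosen after the values were seen, lay 11 members above, against a background of 13.2%, and 0 below, against 17.4%. None of these covers the spread between mice.

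The probes of a gene mostly pointed the same way. The array carried 71 probes for the members, of which 69 were well above background on both arrays, and 55 of those 69 had a ratio above 0, or 79.7%, against 48.2% of all measured probes. Of the 24 members with several measured probes, 16 had all of them above 0, Hyou1 had all below 0, and 7 had probes on both sides. Among the 9348 measured genes with several probes, 24.4% had all above 0, 25.9% all below 0 and 49.7% had probes on both sides. The other 10 members rest on 1 probe each. Ratios above 0 were given by 47 of the 57 probes whose accession is a RefSeq mRNA and by 8 of the 12 others, which include expressed clones and single Ensembl transcripts.

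**Figure D1:**
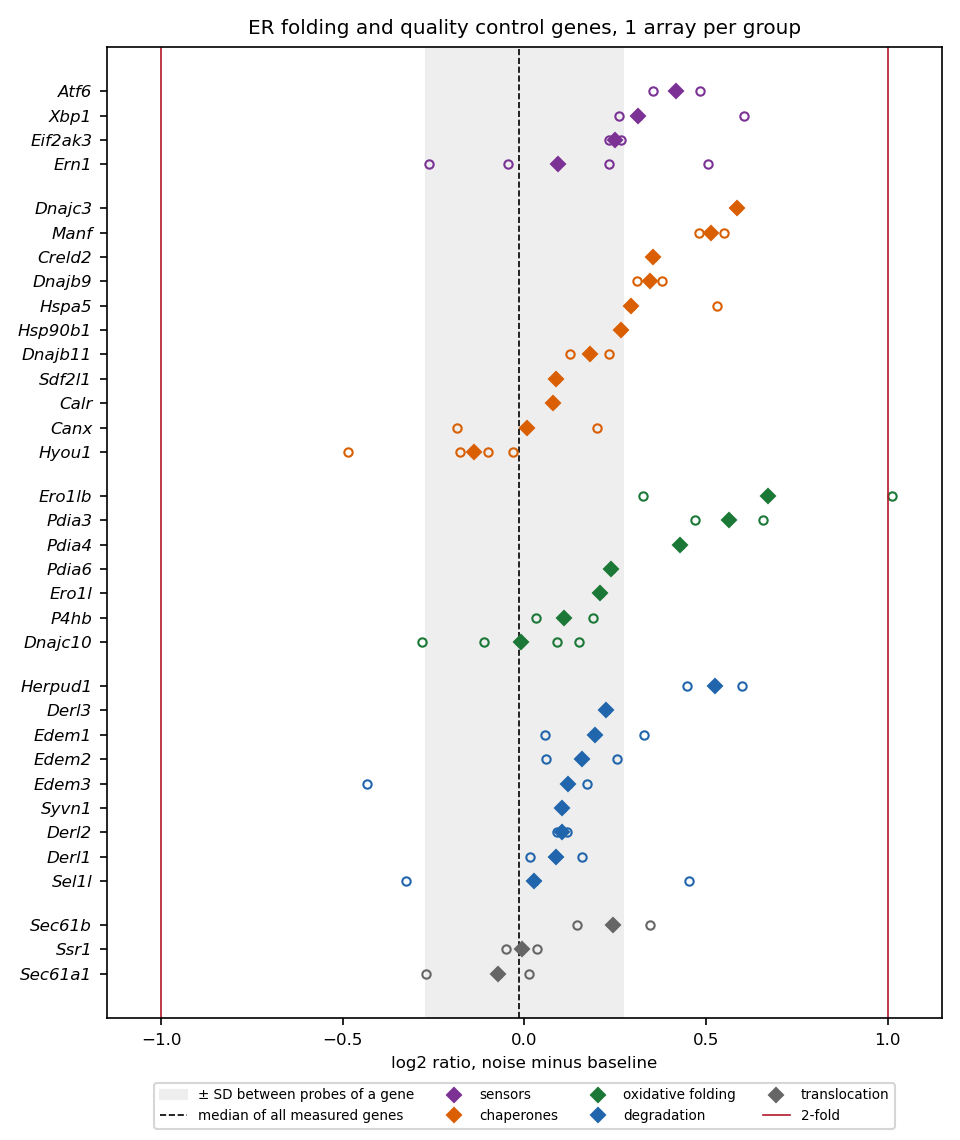
Log2 ratio (noise minus baseline) of the 34 ER genes on the x axis, 1 gene per line, grouped by role. Open circles are single measured probes, filled diamonds the gene's median, the grey band is plus or minus the SD between probes of a gene (0.272), the dashed line the median of all measured genes (-0.01) and the red lines 2-fold. Most diamonds lie right of the dashed line, 11 lie right of the grey band, and none reaches 2-fold.

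All 4 sensor pathway genes were above 0, with a median of 0.28, and 2 of them, Atf6 and Xbp1, were beyond the between-probe SD, steps passed by 47.5% and 13.2% of all measured genes. Signals are given here as multiples of the array's own 75th percentile, which in scanner units was 316 for noise and 278 for baseline. Atf6, the membrane-bound transcription factor that is cut free in the Golgi, read 1.27 in noise and 0.995 in baseline at its RefSeq mRNA probe, and 0.0584 in noise and 0.0418 in baseline at a dimmer one. Both probes were higher in the noise sample and the gene's log2 ratio was 0.42. Xbp1, whose mRNA is spliced by IRE1 to encode an activator of chaperone and degradation genes, read 24.99 in noise against 20.8 in baseline at its brightest probe. Its other probes read 2.41 in noise against 1.94 in baseline, and 1.88 in noise against 1.23 in baseline. All 3 were higher in noise, with probe log2 ratios between 0.26 and 0.60 and a gene value of 0.31. All 3 carry the same accession, so the spliced form of Xbp1 was not measured apart from the unspliced one.

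Eif2ak3, which encodes PERK, the kinase that slows translation through eIF2α, read 1.51 in noise and 1.25 in baseline at the RefSeq mRNA probe, and 0.116 in noise and 0.0986 in baseline at the other. The 2 probes were close, at log2 ratios of 0.27 and 0.23. Ern1, which encodes IRE1α, had no single direction. Its 4 measured probes ran from -0.26 to 0.51, and the only RefSeq mRNA probe was lower, at 0.741 in noise against 0.889 in baseline. The brightest probe was higher, at 1.64 in noise against 1.39 in baseline. The gene's median was 0.09. Its other probe, at a log2 ratio of -0.35, was well above background in baseline but not in noise and was left out. Ern1 changed sign under 4 of 11 other settings, and its highest value was 0.27, with scaling to spike-in controls. With the RefSeq mRNA probe alone it stood at -0.26, with no filter on dim probes at -0.05, with a stricter one at -0.02, and with normexp background correction at -0.01.

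The 11 chaperones and co-chaperones had a median of 0.26, with 10 above 0 (47.5% of all measured genes) and 5 beyond the between-probe SD (13.2%). Hspa5, which encodes BiP, was measured by 3 probes. They read 37.1, 9.98 and 7.32 in noise against 25.7, 8.16 and 5.97 in baseline. Every probe was higher in noise, by log2 ratios of 0.53, 0.29 and 0.29, and the brightest of them, at chr2:34631913-34631972 of assembly mm9, gave the largest ratio. Hsp90b1, the Hsp90 protein of the ER known as GRP94, read 39.3 in noise against 32.7 in baseline at its 1 probe, a log2 ratio of 0.26 that lies just inside the between-probe SD. It was among the brightest members on both arrays.

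The partners of BiP differed among themselves. Dnajc3, the co-chaperone P58IPK that also restrains eIF2α kinases, read 1.90 in noise and 1.27 in baseline, a log2 ratio of 0.59, from 1 probe at chr14:119380429-119380488 of mm9. It was the highest chaperone, and it sits at the edge of the 1.5-fold step. Dnajb9 (ERdj4), which also binds IRE1, read 2.88 in noise against 2.32 in baseline, and 0.184 in noise against 0.141 in baseline at a dimmer probe, for a gene value of 0.34. Dnajb11 (ERdj3), a co-chaperone that is also secreted, had 2 measured probes at 0.13 and 0.23. Sdf2l1, which works in a complex with ERdj3, was at 0.09.

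Hyou1, the GRP170 chaperone that exchanges nucleotide on BiP, was the lowest of all members at -0.14. Its 4 probes were dim on both arrays, from 0.0637 to 0.194 in noise and from 0.0892 to 0.220 in baseline. All 4 were lower in noise, with log2 ratios from -0.49 to -0.03. The RefSeq table of promoters did not hold it, and under spike-in scaling its value was 0.04.

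Manf, a small secreted and ER-resident protein that binds BiP and protects cells under ER stress, read 4.41 and 4.50 in noise against 3.16 and 3.07 in baseline. The 2 probes had nearly equal signals, and both were higher in noise, for a gene value of 0.51. Creld2, an ER-resident protein induced by ER stress, read 16.7 in noise and 13.1 in baseline, a log2 ratio of 0.35. The lectin chaperones that hold glycoproteins were close to the baseline level. Calr (calreticulin) read 11.1 in noise and 10.5 in baseline, a log2 ratio of 0.08. Canx (calnexin), among the brightest members, had probes that disagreed. They read 30.5 in noise against 34.7 in baseline and 20.1 in noise against 17.5 in baseline, and the gene's value was 0.01.

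The 7 oxidative folding enzymes had a median of 0.24, with 6 above 0 (47.5% of all measured genes) and 3 beyond the between-probe SD (13.2%). Pdia3 (ERp57), the isomerase that works with calnexin and calreticulin, read 8.24 in noise against 5.23 in baseline, and 1.46 in noise against 1.06 in baseline at its second probe. Both were higher in noise and the gene value was 0.56. Pdia4 (ERp72) read 1.48 in noise and 1.097 in baseline, a log2 ratio of 0.43. Pdia6 (P5), as bright as Hsp90b1 on each array, read 39.2 in noise and 33.2 in baseline, a log2 ratio of 0.24. P4hb, the founding protein disulphide isomerase, read 6.68 in noise and 5.87 in baseline at its RefSeq mRNA probe. A dim second probe of P4hb read 0.0526 in noise and 0.0515 in baseline and held the gene's value to 0.11, against 0.19 with the RefSeq mRNA probe alone.

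Ero1lb and Ero1l encode the 2 oxidases that recharge the isomerases, and the current symbols are Ero1b and Ero1a. Ero1lb had the highest value of all members, a log2 ratio of 0.67 or 1.59-fold, but from dim and uneven probes. Its RefSeq mRNA probe read 0.224 in noise against 0.178 in baseline, a log2 ratio of 0.33, and a probe to an expressed clone read 0.138 in noise against 0.0684 in baseline, a log2 ratio of 1.01. With the RefSeq mRNA probe alone it stood at 0.33, and with normexp background correction at 0.21. Ero1l was far brighter and read 4.43 in noise and 3.84 in baseline at its 1 probe, a log2 ratio of 0.21. Dnajc10 (ERdj5), the reductase that opens disulphides ahead of degradation, had 4 probes from -0.28 to 0.15 and a value of -0.01. Its sign changed under 6 of 11 other settings.

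**Figure D2:**
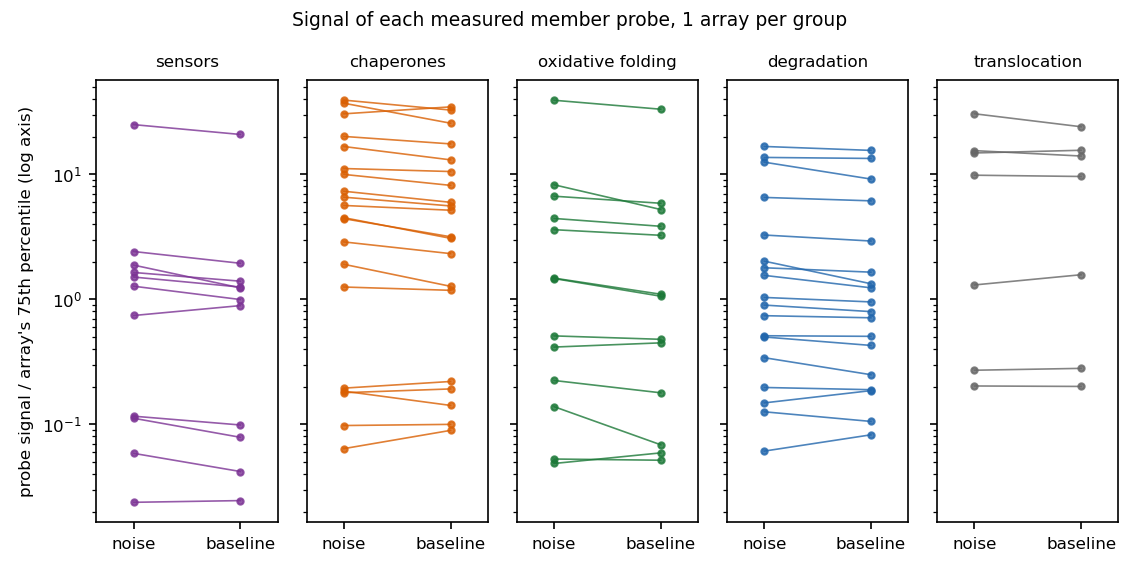
Signal of each measured probe of the ER genes on the y axis (log axis, as a multiple of the array's 75th percentile), with noise left and baseline right in each panel and 1 panel per role. Each line joins the 2 values of 1 probe, and the lines of most probes slope down from noise to baseline, by small steps beside the range of levels, which runs from 0.0237 to 39.3.

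The 9 degradation genes were all above 0, with a median of 0.12, against 47.5% of all measured genes above 0. Beyond the between-probe SD was 1 of the 9, a share near the 13.2% of all measured genes. That gene was Herpud1, a membrane protein of the HRD1 ubiquitin ligase complex. It read 12.5 in noise against 9.16 in baseline at chr8:96919117-96919176 of mm9, and 2.02 in noise against 1.33 in baseline at its second probe. Both probes were higher in noise, with a gene value of 0.52. The other 8 lay between 0.03 and 0.22.

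Among these, the core of the ligase complex was near the baseline level. Syvn1, the HRD1 ubiquitin ligase itself, read 16.7 in noise and 15.5 in baseline, a log2 ratio of 0.10. Sel1l, its adaptor, read 13.7 in noise and 13.4 in baseline at the brightest probe. Its 2 dimmer probes went opposite ways, at -0.33 and 0.45, and the gene's value was 0.03. The derlins, membrane proteins of the exit channel, were at 0.22 (Derl3), 0.10 (Derl2) and 0.09 (Derl1). The mannosidase-like proteins that mark misfolded glycoproteins were at 0.19 (Edem1), 0.16 (Edem2) and 0.12 (Edem3). Edem3 had 1 dim probe at -0.43, and with RefSeq mRNA probes alone its value was -0.16.

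The 3 genes of translocation, the step at which new proteins enter the ER, had a median of -0.01. Sec61b, a small subunit of the channel, read 30.5 and 15.5 in noise against 24.03 and 14.01 in baseline, for a gene value of 0.24. Both of its probes were higher in noise. Sec61a1, the pore-forming subunit, read 14.8 in noise and 15.6 in baseline at its brightest probe and had a value of -0.07. Ssr1, a subunit of the translocon-associated complex, read 9.84 in noise and 9.61 in baseline at its brighter probe and had a value of -0.01.

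Compared by role, the median log2 ratios of the sensor pathway (0.28), the chaperones (0.26) and the oxidative folding enzymes (0.24) were close to each other, and that of the degradation genes (0.12) was lower. Joined, the 18 chaperones and oxidative folding enzymes had a median of 0.25, with 8 beyond the between-probe SD, against 13.2% of all measured genes. That of the translocation genes (-0.01) was lowest. With normexp background correction the sensor pathway (0.17) and the degradation genes (0.14) were closer, and the chaperones and oxidative folding enzymes were each at 0.21. The differences between roles were not tested, since genes on 1 pair of arrays are not replicates. Each role held genes near 0, and the highest of the degradation genes exceeded all 4 sensor pathway genes.

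The wider ER machinery had a smaller median than the 34 members. In 6 further lists of ER genes, 139 of 140 genes were measured. Their joint median was 0.04, with 88 above 0, or 63.3%, against 47.5% of all measured genes. Beyond the between-probe SD lay 9 higher and 8 lower, both smaller shares than the 13.2% and 17.4% of all measured genes, and none passed 2-fold. Among 15 other signalling genes (median 0.01), Serp1, a stress-associated translocon protein, was highest at 0.52, followed by Atf6b, the relative of Atf6, at 0.45. The lowest were Creb3l1, a transcription factor of matrix-secreting cells, at -0.32 and Ern2, the IRE1 form of mucosal epithelia, at -0.30. Among 28 other chaperones and prolyl isomerases (median 0.06), the isomerase Fkbp2 (0.52) and Sec63, which brings BiP to the channel (0.38), were highest. The calreticulin relatives Calr3 (-0.76) and Calr4 (-0.55) were lowest.

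The remaining ER lists were narrower. Among 22 measured disulphide enzymes (median 0.04) the sulphhydryl oxidase Qsox1 (0.26) and Vkorc1l1 (0.17) were highest, and Pdia2 (-0.43) and the peroxidase Gpx7 (-0.26) were lowest. Among 21 genes of N-glycosylation and glycan trimming (median 0.06) the cargo receptor subunit Mcfd2 (0.41) and the first trimming glucosidase Mogs (0.32) were highest, and the mannosidase Man1b1 (-0.39) and the oligosaccharyltransferase subunit Ddost (-0.25) were lowest. Among 21 other translocon and signal peptidase genes (median 0.05) the peptidase subunit Spcs3 (0.48) and Ssr3 (0.24) were highest, and Tram2 (-0.28) and the signal recognition particle receptor Srpr (-0.20) were lowest. Among 32 measured degradation genes beyond the members (median 0.03) none was beyond the between-probe SD. Ufd1l (0.27) and the ubiquitin-conjugating enzyme Ube2j1 (0.25) were highest, and Ubxn6 (-0.21) and Nfe2l1 (-0.21) were lowest.

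Stress programmes outside the ER were set beside these. The 33 genes of the integrated stress response, which PERK and other kinases drive through eIF2α, had a median of 0.09. Above 0 were 25 of them, or 75.8%, against 47.5% of all measured genes. More than 2-fold higher were 2, the cytokine Gdf15 at 2.49 and the transcription factor Atf3 at 1.06, against 0.611% of all measured genes. The lowest were the amino acid transporter Slc7a5 (-0.60) and the seryl-tRNA synthetase Sars (-0.40). Of genes named after their values were seen, Atf4, the central transcription factor of the response, was at 0.16. Among its targets, Ddit3 (CHOP) and Trib3 were at 0.15 and 0.47, and the 2 probes of Ddit3 went opposite ways, at -0.22 and 0.52. Below 0 were 8 of the 33 genes, against 52.5% of all measured genes, among them Ddit4 (-0.35), Eif4ebp1 (-0.22), Ppp1r15a (-0.20) and Asns (-0.17).

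Of 37 genes for cytosolic heat shock proteins 19 were above 0, or 51.4%, near the 47.5% of all measured genes. Their median was 0.01. The inducible Hsp70 gene Hspa1b (0.57) and the small heat shock gene Hspb8 (0.48) were highest, and the co-chaperone genes Dnajb1 (-0.33) and Hsph1 (-0.29) were lowest. The 18 mitochondrial chaperones and proteases had a median of -0.02, with 9 above 0, or 50%, also near that share. The protease Yme1l1 (0.22) and the Hsp70 protein Hspa9 (0.14) were highest, and Dnaja3 (-0.39) and Trap1 (-0.25) were lowest.

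**Figure D3:**
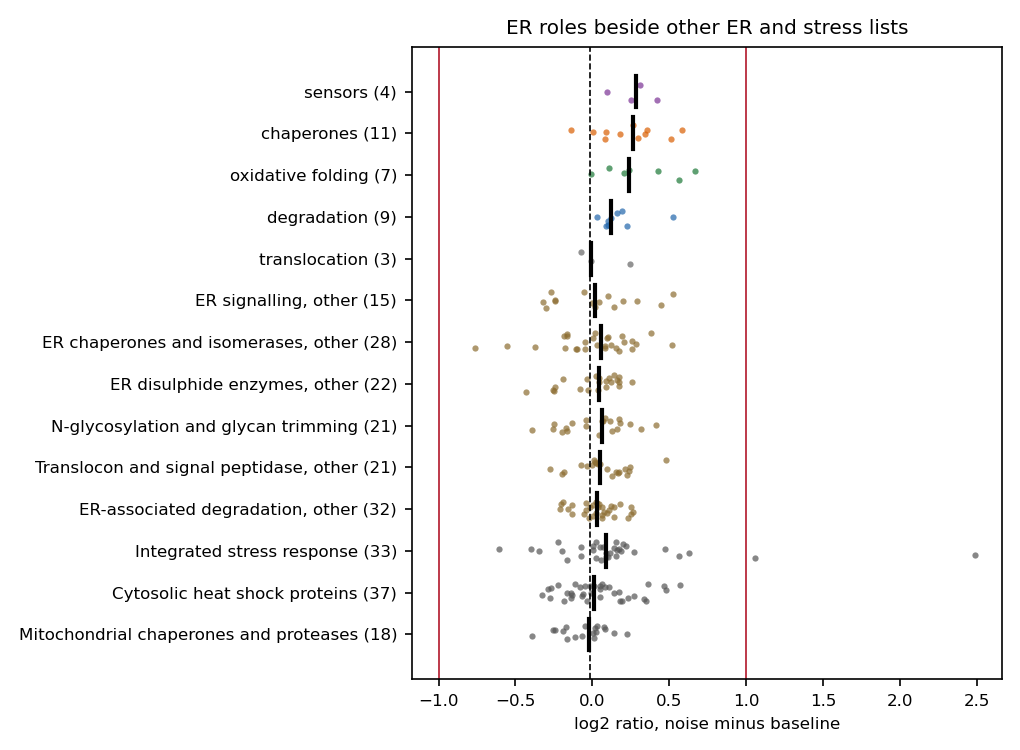
Log2 ratio (noise minus baseline) on the x axis for the 5 roles of the ER genes, 6 further ER lists and 3 stress lists, with the number of measured genes in brackets. Each point is a gene, thick bars are list medians, the dashed line is the median of all measured genes and red lines mark 2-fold. The bars of the sensor pathway, chaperones and oxidative folding lie furthest right, from 0.24 to 0.28, and the points past 2-fold are Gdf15 and Atf3.

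The ER stress response element was frequent in these promoters. It is known from promoters of this pathway, so its share describes the members and is not a test. The counts over all genes include the members. Its first form, CCAAT, 9 bases of any kind and CCACG, searched like the other motifs on both strands, was in 10 of the 29 members whose promoter the RefSeq table holds, or 34.5%, against 37 of 27018 genes in the table, or 0.137%. The second form, ATTGG, 1 base of any kind and CCACG, was in 2 of 29 members (Herpud1 and Dnajb11), or 6.90%, against 0.0444% of genes. Either form was in 12 of 29, or 41.4%, against 0.181%. The core TGACGTGG of the site bound by XBP1 was in 0 of 29, against 0.714% of genes, and the plain CCAAT box, which the first form contains and the second form also holds in reverse, was in 22 of 29, or 75.9%, against 41.1%. By role, an element was found in 7 of 9 chaperones, 3 of 8 degradation genes, 2 of 7 oxidative folding genes, 0 of 3 sensor pathway genes and 0 of 2 translocation genes.

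Only 250 bases before and 50 bases after the start site were searched, so the window set how far away the element could lie. Counted to its first base, it lay 65 bases before the start in Hspa5, 105 in Dnajc3, 52 in Herpud1 and 201 in Ero1lb. Hsp90b1 held 2, at 212 and 107 bases. In Dnajb11 it lay just downstream of the start. The 12 members with an element had a median log2 ratio of 0.25, from 0.01 to 0.67. Above 0 were 12 of 12, against 47.5% of all measured genes. The 17 members searched without an element had a median of 0.16, from -0.01 to 0.56, and 15 were above 0. The ranges overlapped almost wholly. Canx, with an element 145 bases before its start, stood at 0.01, while Pdia3 and Pdia4, with none in the window, stood at 0.56 and 0.43. Among measured genes that are not members, 21 held either form, and their median was 0.09 with 14 above 0, or 66.7%. The 14 with the first form had a median of 0.01 and 7 above 0, or 50%, near the 47.5% of all measured genes. The 7 with the second form had a median of 0.09 and 7 above 0.

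**Figure D4:**
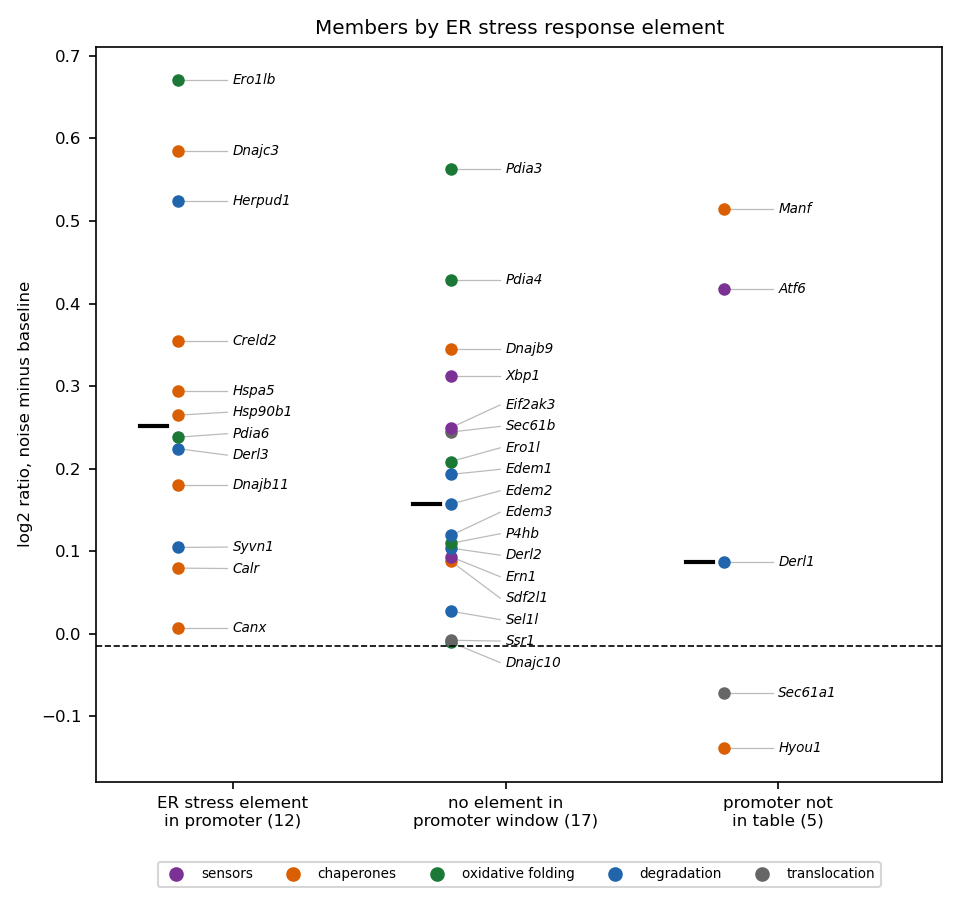
Log2 ratio (noise minus baseline, y axis) of the ER genes with an ER stress response element in the promoter window (12), without one (17) or with no promoter in the RefSeq table (5). Each point is a gene coloured by role, short thick bars are group medians and the dashed line is the median of all measured genes. Genes with an element (median 0.25) and without one (median 0.16) overlap over most of their range.

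Markers of the cochlea and of other cell types also differed between the 2 samples. All 22 markers of the cochlea were measured on both arrays, including Coch, Otos, Tecta and Myo7a. Their median log2 ratio was 0.24, with 16 of 22 above 0, against 47.5% of all measured genes. Their summed signal was 415 in noise and 384 in baseline. In whole tissue, fewer cells of a type and less RNA per cell cannot be told apart. Plasma cells, which hold much ER, were covered by 11 markers of plasma and mature B cells, of which 10 were measured. Their median was 0.38, 9 of 10 were above 0 (47.5% of all measured genes), and their sum was 23.9 in noise and 17.1 in baseline. Tnfrsf17, a defining plasma cell marker, was not well above background on both arrays.

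Other lists went both ways, and their counts above 0 stand beside 47.5% of all measured genes. Pre-B cell markers had a median of 0.61, with 10 of 10 above 0 and sums of 31.2 in noise and 22.9 in baseline. Neutrophil markers had a median of 0.28, with 13 of 15 above 0 and sums of 1161 in noise and 1112 in baseline. Both of these lists were higher in the noise sample by median. Osteoblast and fibroblast markers had a median of 0.08, with 9 of 15 above 0 and sums of 1034 in noise and 1009 in baseline. The other 5 lists had medians below 0. Adipocyte markers had a median of -1.46, with 1 of 14 above 0 and sums of 42.1 in noise and 134 in baseline. Pituitary markers had a median of -1.25, with 0 of 7 above 0 and sums of 18.0 in noise and 55.3 in baseline. In both of these lists the summed signal was lower in noise than in baseline by more than 2-fold. Skeletal muscle markers had a median of -0.81, with 0 of 15 above 0 and sums of 61.0 in noise and 88.9 in baseline. Markers of central neurons and glia had a median of -0.76, with 3 of 14 above 0 and sums of 19.9 in noise and 31.2 in baseline. Of the 14, 1 was more than 2-fold higher, Pcp2 at 1.60, and 6 were more than 2-fold lower, against 0.611% and 1.25% of all measured genes. Mucosal and glandular markers had a median of -0.17, with 5 of 13 above 0 and sums of 216 in noise and 237 in baseline. Of the 13, 2 were more than 2-fold lower, Lipf at -5.42 and Bpifb1 at -5.20, against 1.25% of all measured genes. Dmbt1 was well above background in baseline only, as were Slc6a5 of the central list and Fshb and Tshb of the pituitary list. By far the brightest probes in the mucosal sums were those of Bpifa1 and Pigr. The part of any of these cell types in the ER result was not tested. The ER median of 0.20 lay below the median of the cochlear markers (0.24) and above the log2 ratio of their summed signals (0.11).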

How the data were processed

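Both arrays lay on 1 slide and were read in 1 scan, per the file headers. The values used are the intensity of each spot in the scanner files that the authors deposited. Agilent Feature Extraction, version 11.5.1.1, per the file headers, subtracted a background, detrended each array and replaced values near background by surrogates. The deposited value table is on the log2 scale and was the processed signal, set to at least 1, in log2 minus 8.30 for noise and 8.12 for baseline, all probes within 0.01, with medians of -2.80 (noise) and -2.78 (baseline) and no centring per gene. Each array had 59305 non-control spots, of which 77 (noise) and 58 (baseline) carried outlier flags and were removed, 0 spots were saturated, and 75.3% (noise) and 75.2% (baseline) of probes were well above background.

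From the processed signal, the repeat spots of each probe were averaged as log2 and the array's 75th percentile was subtracted. A probe was measured if well above background on both arrays (41647 of 56590), and a gene took the median log2 ratio of its measured probes. The number of arrays limits the precision. Every member is named, with the 2 highest and 2 lowest genes of each other ER or stress list. Further genes of the integrated stress response and some of the markers are also named. The members and lists were chosen with earlier results of these data known. The gene step was run on simulated data, made from the baseline array with known differences added. That checks the arithmetic only and not the differences reported here. Alternatives covered background (normexp, limma 3.58.1 in R 4.3.3, offset 50), scaling, filters on dim probes, probe choice and the deposited table. Probe coordinates are on mm9, per the file headers. Promoters are RefSeq's, matched by symbol. Python 3.11.15, numpy 2.4.6 and pandas 2.3.3 were used.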

Additional observations from a re-analysis of the deposited data

How the results depend on the processing

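The median of the 34 ER genes stayed between 0.16 and 0.23 under 10 of 11 other settings and was 0.37 with spike-in scaling. That scaling, on 8 control probes whose ratios ran from -0.20 to 0.40, moved the median of all genes to 0.16, with 73.4% of genes above 0 and 31.6% higher by more than the between-probe SD. Relative to it the ER median was 0.22. With it the medians were 0.45 (sensor pathway), 0.44 (chaperones), 0.41 (oxidative folding), 0.29 (degradation) and 0.17 (translocation), 24 members were beyond the between-probe SD, 7 were 1.5-fold higher and 0 were below 0. With normexp background correction the sensor median was 0.17. The number 1.5-fold higher was 0 with normexp, 3 with median scaling and 1 each with quantile normalization, loess on level, the stricter filter (signal of at least 50, which drops Ero1lb) and RefSeq mRNA probes alone, an alternative chosen after seeing the data. The share of all genes 1.5-fold higher was not counted under these settings, so these counts have no background beside them. Median scaling left 2 members below 0, with 51.9% of all genes above 0. Of 373 member values under another setting, 352 kept their sign. The same count over all genes was not made, so the counts of kept and changed signs have no background. Above 0 in all settings that measured them were 27 members, and Canx, Dnajc10, Edem3, Ern1, Hyou1, Sec61a1 and Ssr1 changed sign in some. The cause of these shifts was not tested. No paired analysis was possible because only 1 array was made per group, so no replicate could be left out either. Dim probes, such as those of Hyou1 and Ero1lb, limit what can be said of a single gene.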
